A study of Homo sapiens with 37 samples.

Results

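CXCL1, CXCL2, CXCL3, CXCL5, CXCL6 and CXCL8 are the ELR-type CXC chemokines examined here, 6 genes among the 57773 gene identifiers counted in each library. They were chosen by name, after the Ensembl identifiers had been matched to symbols, and not by their counts. All 6 are described in 37 libraries of total RNA from cultured human cells, made to compare cells driven into senescence, a lasting arrest of division, with dividing cells of the same kind. The edgeR quasi-likelihood test was used, and a gene was called where its Benjamini-Hochberg adjusted p over all genes of the comparison was below 0.05. Each of the 6 passed the filter on low counts in every comparison.

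HAEC, endothelial cells of the human aorta at population doubling level (PDL) 4 to 6, gave 2 control libraries and 3 from cells given 4 Gy of ionising radiation. HUVEC, endothelial cells of the umbilical vein at PDL 3 to 5, gave 3 control libraries and 3 after 4 Gy. IMR-90, a diploid fibroblast strain of the lung, gave 2 libraries of proliferating cells at PDL 15, 2 from cells at PDL 15 given 10 Gy and 2 from cells at PDL 52, called late passage below. WI-38, another lung fibroblast strain, was used at PDL 25 unless stated and gave 2 libraries per group. Its first set held control cells, cells given 2 µg/mL of doxorubicin for 24 h, cells given an empty vector at 10 MOI with 1 µg/mL of puromycin, and cells given a lentivirus expressing HRASG12V at the same MOI and puromycin dose. Doxorubicin is a DNA-damaging drug, and the HRAS allele is a permanently active mutant. The second WI-38 set held a repeat of the doxorubicin experiment with its own control, a radiation control with cells given 10 Gy, and late passage cells at PDL 53 to 55 with proliferating cells at PDL 25. Endothelial cells grew in endothelial growth media and fibroblasts in DMEM with serum. The time from treatment to harvest is not given in the sources used here.

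ELR-type CXC chemokines are small secreted proteins that carry the residues glutamate, leucine and arginine ahead of their first cysteines. They act on neutrophils through the receptor CXCR2, and some of them through CXCR1 as well, and draw these cells into tissue. They also promote the growth of vessels. Their genes lie together on the long arm of chromosome 4 and are classical targets of NF-kappaB downstream of interleukin-1, and they belong to the secretory programme described in senescent fibroblasts.

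In the GENCODE annotation of GRCh38, all 6 are protein-coding genes of chromosome 4. CXCL8 (ENSG00000169429, interleukin-8) spans chr4:73740506-73743716 on the plus strand, CXCL6 (ENSG00000124875) spans chr4:73836497-73849064 and CXCL1 (ENSG00000163739) spans chr4:73869393-73871242 on the same strand. CXCL5 (ENSG00000163735) spans chr4:73995642-73998779, CXCL3 (ENSG00000163734) spans chr4:74036589-74038807 and CXCL2 (ENSG00000081041) spans chr4:74097035-74099293, all on the minus strand. The authors aligned to another build, hg19, so these positions serve only to place the genes. The exon lengths used below for values per base of exon come from this GRCh38 annotation as well.

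The promoters are shown because the 6 genes moved together in most comparisons and because NF-kappaB is their best known regulator. RefSeq promoter sequences (GRCh38.p14) were found for 6 of the 6 members, and the 250 bases before each start were searched on both strands. All 6 held GGAATTTCC, a form of the NF-kappaB binding site, against 145 of 35116 RefSeq promoters of the same length (0.413%). The 30 bases around it are given 5′ to 3′ on the strand of the gene, with the GGAATTTCC in capitals.
CXCL1: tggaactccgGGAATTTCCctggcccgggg
CXCL2: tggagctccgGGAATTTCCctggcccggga
CXCL3: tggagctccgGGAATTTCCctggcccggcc
CXCL5: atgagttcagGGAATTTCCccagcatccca
CXCL6: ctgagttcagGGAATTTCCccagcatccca
CXCL8: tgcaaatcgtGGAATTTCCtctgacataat
These stretches lie at chr4:73869305-73869334 for CXCL1, chr4:74099253-74099282 for CXCL2, chr4:74038748-74038777 for CXCL3, chr4:73998748-73998777 for CXCL5, chr4:73836579-73836608 for CXCL6 and chr4:73740468-73740497 for CXCL8. The match began 77 or 78 bases before the RefSeq start in CXCL1, CXCL2 and CXCL3, and 89 to 91 bases before it in CXCL5, CXCL6 and CXCL8. Aligned from 110 to 11 bases before the start, CXCL1, CXCL2 and CXCL3 were 89.2% to 93.1% identical and CXCL5 and CXCL6 were 91.1% identical. Every other pair was 43.5% to 54.6% identical. The AP-1 site TGACTCA was found only in CXCL8 among the 6, beside 4.2% of all promoters, and so was TTGCAAA, a C/EBP-like site present in 2.98%. The GC box GGGCGG was found in CXCL1, CXCL3 and CXCL6 and in 42.6% of all promoters. The printed stretches were cut around the NF-kappaB letters, so the search was not a test, and near copies do not give separate matches. The share among all promoters is given for description only. A match describes these letters and not binding.

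The same kinship limits the counts. Of the stretches of 31 bases in the GENCODE transcripts of CXCL2, 22.4% also occur in another gene, mainly CXCL3 and CXCL1. The share was 14.4% for CXCL1, 9.54% for CXCL3, 5.2% for CXCL6, 5.02% for CXCL5 and 0 for CXCL8. Values of CXCL1, CXCL2 and CXCL3 are therefore uncertain against each other, and part of the exons of CXCL6 lies in the pseudogene PPBPP1 on the same strand.

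Library totals ran from 102293388 to 370996204 counts. Protein-coding genes held 50.7% to 66.9% of counts in the 25 libraries outside the second WI-38 set and 82.0% to 91.1% in the 12 of the second WI-38 set, where mitochondrial genes held 3.21% to 14% against 0.101% to 0.607%. Summed over 8 endothelial markers, levels were 1547 to 2052 CPM (counts scaled to a common library total) in endothelial libraries and 37.1 to 307 in fibroblasts, and 8 fibroblast markers summed to 884 to 14878 CPM in fibroblasts and 15.5 to 37.5 in endothelial libraries. Leukocyte markers summed to 5.84 CPM at most and epithelial markers to 1.04. HRAS was at 1944 and 1989 CPM in the libraries given HRAS and at 29 to 47 in the other 6 of that set. Replicates of every group differed by more than counting noise, and nothing in the labels says that they were grown as separate cultures. The p-values therefore cover the spread among these libraries alone, which may be technical.

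The members differed widely in level. Levels are CPM scaled within each of the 5 sets (HAEC, HUVEC, IMR-90 and each WI-38 set), so those of different sets are set side by side without a test. CXCL8, the most studied neutrophil attractant of the family, reached 1290 ± 412 CPM (SD, n = 2) in WI-38 given HRAS, its highest group. Its lowest was the WI-38 radiation control, with 0.124 and 0.0287 CPM. After HRAS, its order ran from doxorubicin (321 CPM) through proliferating IMR-90 (134) and irradiated HAEC (114) to control HAEC (92.5), and no library of one of these groups reached the range of the next.

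CXCL5, CXCL3 and CXCL2 had the same top group as CXCL8. CXCL5, made by fibroblasts and epithelia, averaged 185 CPM with HRAS, then 49.5 with doxorubicin, 31.9 in the doxorubicin repeat and 20.1 in proliferating IMR-90, of which only the doxorubicin repeat and IMR-90 overlapped. CXCL3 averaged 45.1 CPM with HRAS, 13.9 with doxorubicin and 11.3 in proliferating IMR-90, and these 3 groups did not overlap. CXCL2 averaged 14 CPM with HRAS and 8.28 in proliferating IMR-90, and was at 5.84 CPM or lower in every library of the other groups. CXCL1 and CXCL6 had another order. CXCL1 averaged 176 CPM in the doxorubicin repeat, 98.5 with doxorubicin, 87.0 in irradiated WI-38 and 81.9 in proliferating IMR-90, and each of these groups overlapped the next. CXCL6, first described as a granulocyte attractant, averaged 44.9 CPM in the doxorubicin repeat and 31.3 with doxorubicin, which overlapped, then 22.7 in proliferating IMR-90 and 6.46 in irradiated WI-38. With HRAS, CXCL6 was at only 1.70 CPM.

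**Figure D1:**
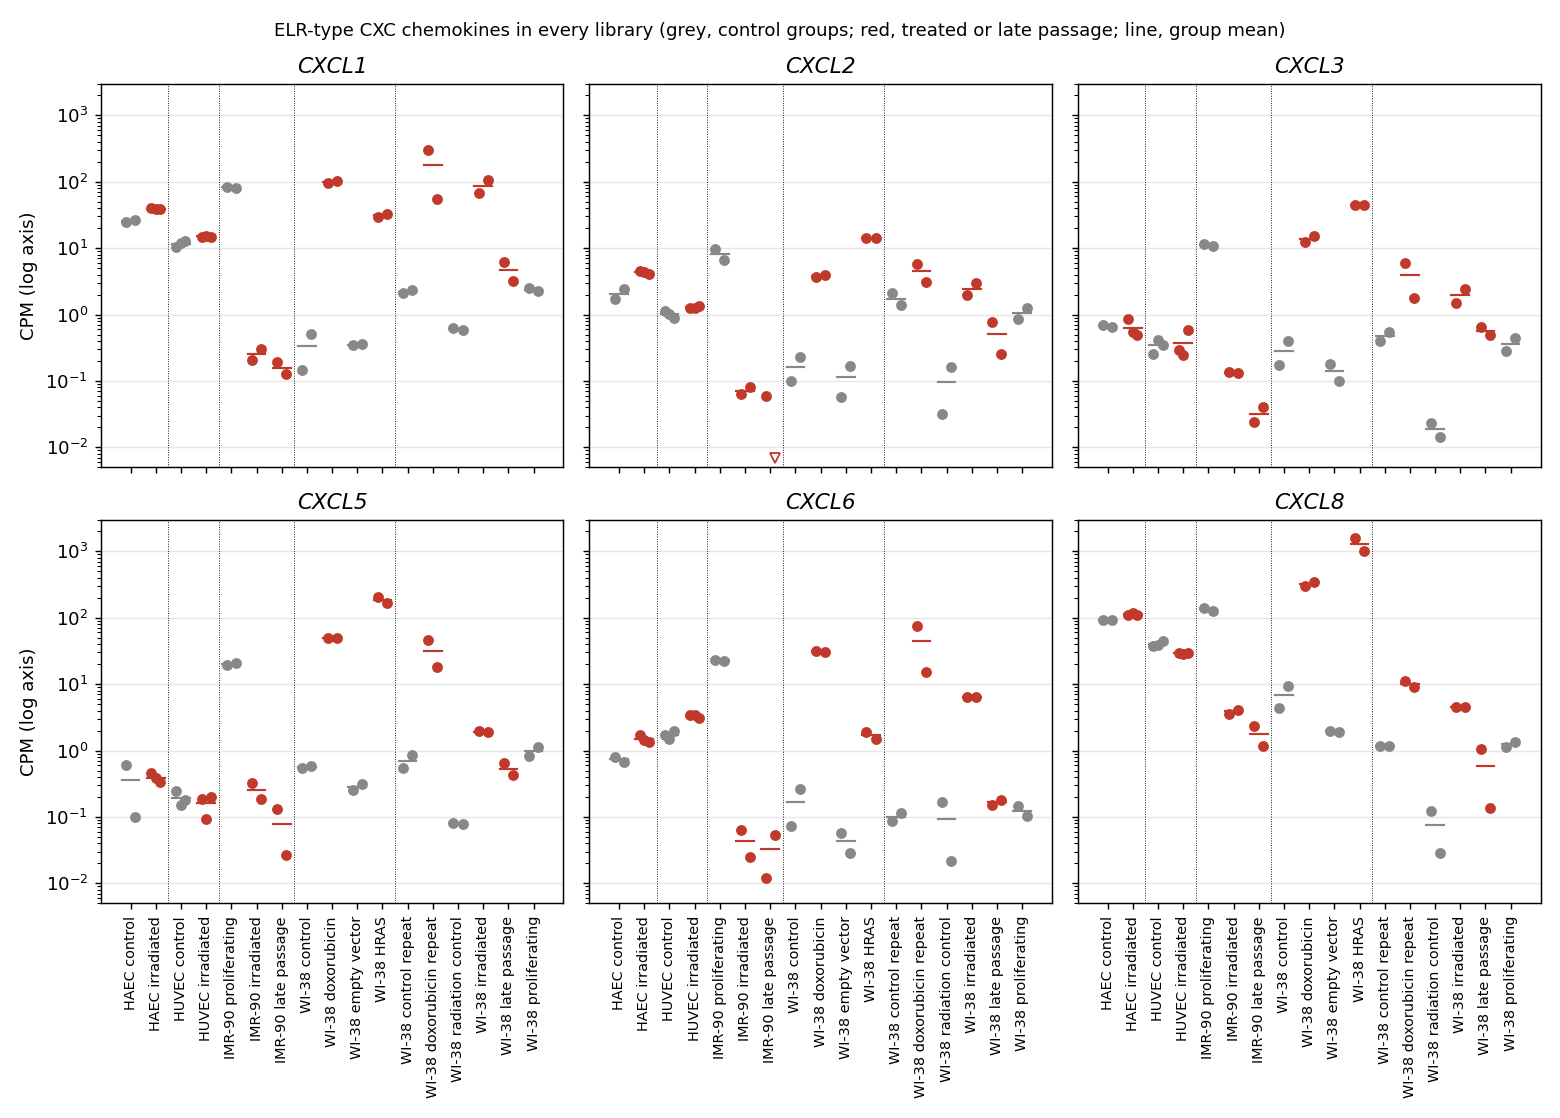
CPM of each chemokine in every library on a log axis, by group, with dotted lines between the 5 sets. Grey points are control groups and red points treated or late passage cells, lines are group means, and the open triangle marks the library of late passage IMR-90 with no CXCL2 count. The grey points of proliferating IMR-90 lie far above the red points beside them in every panel, while treated WI-38 points lie above their controls.

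Over the 9 comparisons of a treated or late passage group with its own control, 29 of the 54 tests of the 6 members were called higher, 13 lower and 12 neither way. Of all genes tested, the share called higher ran from 3.18% (doxorubicin repeat) to 27.1% (HRAS). The share called lower ran from 2.26% (doxorubicin repeat) to 23.5% (late passage IMR-90). The 12 lower calls of IMR-90 come from comparisons that share the same 2 control libraries. CXCL1 and CXCL6 were called in 8 of the 9 comparisons each, as was CXCL8, and CXCL2, CXCL3 and CXCL5 in 6. In bulk RNA, fewer cells that make a chemokine and less of its RNA per cell cannot be told apart.

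**Figure D2:**
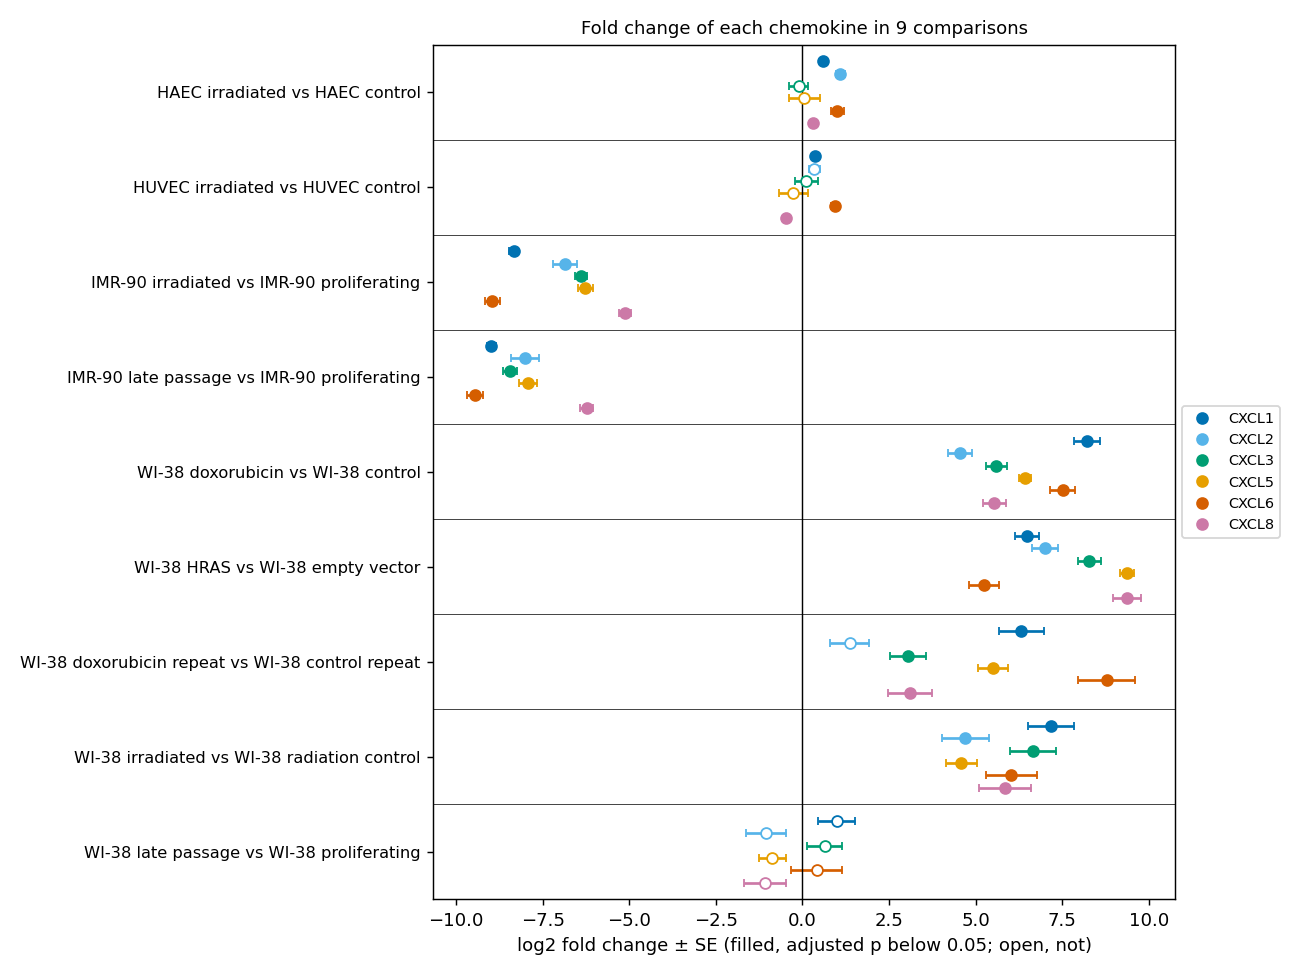
log2 fold change of each chemokine, with its standard error, in 9 comparisons of a treated or late passage group with its control. Filled points had an adjusted p below 0.05. Both endothelial comparisons stay within 1.10 of 0, both IMR-90 comparisons lie between -9.46 and -5.11, and late passage WI-38 has open points on each side of 0.

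In HAEC, 4 Gy raised CXCL1, CXCL2, CXCL6 and CXCL8, by about 1.23-fold to 2.14-fold. The 4 called higher and 0 called lower stand beside 19.7% and 19.9% of all 28024 genes tested in this comparison. CXCL8 was at 94.0 and 91.0 CPM in the controls and at 111, 118 and 112 in the irradiated libraries, all above the controls, a log2 fold change of 0.30 ± 0.04 (SE, edgeR adjusted p = 1.0e-06). CXCL1, the GRO-alpha chemokine, was at 25.2 and 27.0 CPM in the controls and at 40.9, 39.3 and 38.4 after radiation, without overlap (log2 fold change 0.60 ± 0.05, edgeR adjusted p = 1.2e-09). CXCL2, its near copy, was at 1.71 and 2.39 CPM in the controls and rose to 4.58, 4.32 and 4.10 (1.10 ± 0.13, edgeR adjusted p = 8.1e-07).

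CXCL6 rose in the same cells from 0.809 and 0.664 CPM to 1.74, 1.42 and 1.33, by 1.01 ± 0.19 on the log2 scale (edgeR adjusted p = 2.1e-04). CXCL3 and CXCL5 overlapped between the groups, so that 4 of the 6 did not, beside 57.8% of all genes tested. CXCL3 had a log2 fold change of -0.11 ± 0.26 (edgeR adjusted p = 0.79), and the sum of CXCL1, CXCL2 and CXCL3, counted as 1 gene because their reads can be exchanged, rose by 0.63. CXCL5 was at 0.612 and 0.101 CPM in the controls and gave 0.05 ± 0.44 (edgeR adjusted p = 0.94), and without the first of these libraries it was called higher (1.95, edgeR adjusted p = 0.0041). The spread in HAEC was small, and in a fit that shared 1 spread over all 37 libraries none of the 6 was called (4 of 6 in the fit of HAEC alone). Of all genes, 3942 were called in that fit, against 11118 in the fit of HAEC alone.

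HUVEC received the same dose, and CXCL8 moved the other way. It was at 37.5, 38.7 and 45.2 CPM in the controls and fell to 29.6, 28.6 and 29.5, without overlap, a log2 fold change of -0.47 ± 0.05 (edgeR adjusted p = 6.9e-08). CXCL6 was at 1.70, 1.48 and 1.98 CPM in the controls and rose to 3.38, 3.38 and 3.13 (0.93 ± 0.12, edgeR adjusted p = 7.4e-07). CXCL1 rose from 10.5, 11.8 and 12.6 CPM to 14.8, 15.3 and 14.9 (0.37 ± 0.06, edgeR adjusted p = 3.4e-05). These 2 higher calls and 1 lower call stand beside 18.6% and 20.1% of 27519 genes.

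CXCL2 in HUVEC was at 1.14, 1.03 and 0.878 CPM in the controls and at 1.24, 1.26 and 1.36 after radiation, without overlap, but its test did not pass (0.34 ± 0.16, edgeR adjusted p = 0.10). CXCL3 and CXCL5 overlapped between the groups and were below 0.6 CPM in every library. The other 4 did not overlap, beside 47.3% of all genes tested. As in HAEC, none of the 6 was called in the fit of all 37 libraries. That fit called 3269 genes in all, against 10652 in the fit of HUVEC alone. A fit of both endothelial sets tested how the 2 responses differ. CXCL8 responded lower in HUVEC than in HAEC by 0.76 ± 0.07 on the log2 scale (edgeR adjusted p = 2.4e-09), with 9.11% of 30317 genes called lower and 8.85% higher. CXCL2 responded lower by 0.75 ± 0.20 (edgeR adjusted p = 0.0084), a call lost without the first HAEC control (edgeR adjusted p = 0.078). CXCL1 responded lower by 0.23 ± 0.08 (edgeR adjusted p = 0.035), which was lost when any of 3 libraries was left out and with the replicate block (-0.25, edgeR adjusted p = 0.052). Without the first HAEC control CXCL5 was called lower as well (-2.25). For CXCL6 the difference was -0.07 ± 0.22, and for CXCL3 and CXCL5 it was 0.22 ± 0.44 and -0.34 ± 0.64.

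In IMR-90 all 6 chemokines were high in proliferating cells and low after 10 Gy. All were called lower, beside 22.5% of 29274 genes called lower and 26.6% higher. CXCL8 was at 141 and 127 CPM in proliferating cells and at 3.61 and 4.15 after radiation, a log2 fold change of -5.11 ± 0.18 (edgeR adjusted p = 2.9e-11). CXCL1 was at 82.5 and 81.4 CPM and then at 0.209 and 0.304, and gave -8.34 ± 0.12. CXCL6 went from 22.8 and 22.7 CPM to 0.0627 and 0.0248 (12 and 4 counts), and had the largest change of the 6 at -8.95 ± 0.21. The groups did not overlap in any member, nor in 74.5% of all genes tested, and the fitted change ran from 34.6-fold lower in CXCL8 to 494-fold lower in CXCL6.

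The remaining members fell in parallel. CXCL5 was at 19.4 and 20.7 CPM in proliferating cells and at 0.324 and 0.186 after radiation (-6.27 ± 0.22). CXCL3 was at 11.6 and 11 CPM and then at 0.136 and 0.130 (-6.40 ± 0.17). CXCL2 was at 9.81 and 6.74 CPM and then at 0.0627 and 0.0805, that is 12 and 13 counts (-6.85 ± 0.35). The edgeR adjusted p of these 5 members was 1.1e-09 or lower.

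Late passage IMR-90 at PDL 52 gave the same picture against the same 2 control libraries, and all 6 were called lower, beside 23.5% of genes called lower and 26.6% higher. CXCL8 was at 2.37 and 1.17 CPM, a log2 fold change of -6.23 ± 0.19 (edgeR adjusted p = 8.0e-12). CXCL1 was at 0.191 and 0.127 CPM (-8.99 ± 0.13) and CXCL6 at 0.0119 and 0.0536 (-9.46 ± 0.22), from 2 and 8 counts. CXCL5 was at 0.131 and 0.0268 CPM (-7.92 ± 0.26) and CXCL3 at 0.0239 and 0.0402 (-8.45 ± 0.21). CXCL2 had 10 counts in the first library and none in the second, and its -8.00 ± 0.40 ran from -13.39 to -7.10 as libraries were left out. The groups did not overlap in any of the 6, beside 73.8% of all genes tested that did not. No call of either comparison was lost when any 1 library was left out.

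Set directly against each other, irradiated cells had more CXCL3 (2.05 ± 0.37, edgeR adjusted p = 0.0033), CXCL8 (1.11 ± 0.20, 0.0028) and CXCL5 (1.66 ± 0.43, 0.024) than late passage cells, beside 5.12% of genes called higher and 5.45% lower. The CXCL5 call was lost without the first irradiated or the second late passage library and with DESeq2, and CXCL2 was called without the first late passage library (6.54). CXCL1, CXCL2 and CXCL6 gave 0.65, 1.15 and 0.51, none of which passed. Counts behind these calls were low. CXCL3 had 26 and 21 counts after radiation and 4 and 6 in late passage, and CXCL5 had 62 and 30 against 22 and 4. The fibroblast markers moved with the chemokines. Their sum was 14114 and 14878 CPM in proliferating cells, 2933 to 2996 after radiation and 4480 to 4820 in late passage cells, and 8 of 8 were called lower after radiation and 7 of 8 in late passage, with 1 called higher. Endothelial markers summed to 251 to 253 CPM in proliferating cells, 95.2 to 95.6 after radiation and 72.4 to 105 in late passage, with 2 of 8 called lower and 1 higher after radiation and 6 lower and 1 higher in late passage. The 8 leukocyte markers summed to 0.408 to 0.466 CPM in proliferating cells, with FCGR3B, AIF1 and CD3E at 3 counts or fewer. The part of these markers in the result was not tested.

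In the first WI-38 set, doxorubicin raised all 6 members, beside 13.6% of 29380 genes called higher and 13.2% lower. CXCL8 was at 4.40 and 9.36 CPM in control cells and at 302 and 341 after the drug, a log2 fold change of 5.55 ± 0.34 (edgeR adjusted p = 2.2e-07). CXCL1 was at 0.148 and 0.515 CPM and then at 94.5 and 103, the largest change of the 6 (8.21 ± 0.37, edgeR adjusted p = 1.7e-08). Both controls lay far below both treated libraries in every member.

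CXCL5 rose in these cells from 0.555 and 0.593 CPM to 49.0 and 50.0 (6.43 ± 0.18, edgeR adjusted p = 2.1e-09). CXCL6 rose from 0.0740 and 0.264 CPM to 31.7 and 30.9 (7.52 ± 0.36). CXCL3 rose from 0.173 and 0.395 CPM to 12.5 and 15.2 (5.60 ± 0.30), and CXCL2 from 0.0986 and 0.228 to 3.69 and 3.98 (4.54 ± 0.34). Control and treated libraries were apart in all 6, and in 69.9% of all genes tested. The fibroblast markers summed to 4381 to 4460 CPM in control and 7782 to 8031 in treated cells, with 5 of 8 called higher, and the leukocyte markers to 0.185 to 0.617 and 1.09 to 1.51 CPM. Of the 8 endothelial markers 5 were called lower and 2 higher, while their sum was 103 to 108 CPM in control and 237 to 248 in treated cells. Their part was not tested.

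HRAS raised all 6 members over the empty vector, beside 27.1% of genes called higher and 18.9% lower. CXCL8 was at 1.97 and 1.90 CPM with the empty vector and at 1581 and 999 with HRAS, a log2 fold change of 9.38 ± 0.40 (edgeR adjusted p = 8.8e-09). CXCL5 was at 0.251 and 0.313 CPM and then at 202 and 167 (9.36 ± 0.20, edgeR adjusted p = 1.2e-10). CXCL3 went from 0.183 and 0.0995 CPM to 45.1 in each library (8.28 ± 0.34). The HRAS libraries stood above every other library of the study in these 3 members.

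CXCL2 was at 0.0571 and 0.171 CPM with the empty vector and at 14.1 and 14 with HRAS (7.0 ± 0.37). CXCL1 was at 0.342 and 0.355 CPM and then at 29.7 and 32.5 (6.48 ± 0.35). CXCL6 changed least, from 0.0571 and 0.0284 CPM, 10 and 4 counts, to 1.90 and 1.49 (5.24 ± 0.44, edgeR adjusted p = 1.6e-06). All 6 were apart between the groups, as were 71.0% of all genes tested. Against untreated control cells, empty vector cells had less CXCL5 (-1.03 ± 0.19), CXCL8 (-1.83 ± 0.30) and CXCL6 (-1.92 ± 0.58). These calls stand beside 21.9% of genes called lower and 15.6% higher. Vector, infection and puromycin cannot be told apart in this difference. The CXCL6 call was lost without the second control library or the second empty vector library, and without that control CXCL1 was called higher (1.22). Fibroblast markers summed to 5909 to 6902 CPM with the empty vector and 884 to 983 with HRAS, with 8 of 8 called lower. Of the 8 endothelial markers 7 were called higher with HRAS, although their sum was 73.7 to 76.8 CPM with the empty vector and 37.1 to 40.2 with HRAS. The part of these markers in the chemokine result was not tested.

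The HRAS and doxorubicin responses differed in all 6 members when each was taken against its own control. The HRAS response was the larger in CXCL8 (by 3.83 ± 0.42, edgeR adjusted p = 3.1e-05), CXCL5 (2.93 ± 0.24, 2.7e-06), CXCL3 (2.68 ± 0.44, 6.2e-04) and CXCL2 (2.45 ± 0.53, 0.0036), beside 21.6% of genes called higher. It was the smaller in CXCL1 (-1.73 ± 0.47, edgeR adjusted p = 0.013) and CXCL6 (-2.28 ± 0.76, 0.035), beside 14% called lower. The CXCL6 difference was lost without any of 3 libraries and the CXCL2 difference without the second control library, and the CXCL1 difference was lost with DESeq2 (adjusted p = 0.062).

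The doxorubicin experiment was repeated in the second WI-38 set, where 5 of the 6 were called higher, beside 3.18% of 33612 genes called higher and 2.26% lower. CXCL1 was at 2.08 and 2.33 CPM in the controls and at 298 and 54.6 after the drug (6.32 ± 0.64, edgeR adjusted p = 5.2e-05). CXCL6 was at 0.0869 and 0.116 CPM and then at 74.6 and 15.1 (8.78 ± 0.82, edgeR adjusted p = 2.5e-05). CXCL5 was at 0.553 and 0.851 CPM and then at 45.9 and 17.9 (5.50 ± 0.44, edgeR adjusted p = 6.05e-06). In these 3 members the first treated library was well above the second, and both lay above the controls.

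CXCL8 was at 1.16 and 1.18 CPM in the repeat's controls and at 11 and 9.05 after the drug (3.10 ± 0.64, edgeR adjusted p = 0.011), a call lost without the first control library. CXCL3 rose from 0.394 and 0.550 CPM to 6.07 and 1.76 (3.05 ± 0.51, edgeR adjusted p = 0.0029). CXCL2 was at 2.10 and 1.38 CPM and then at 5.84 and 3.10, without overlap but not called (1.36 ± 0.57, edgeR adjusted p = 0.20). With no filter on low counts, or with all 37 libraries in 1 fit, CXCL2 was called as well (edgeR adjusted p = 0.0040 and 0.025). Each of the 6 was without overlap, beside 48.4% of all genes tested. Fibroblast markers summed to 3422 to 5199 CPM in control and 6848 to 8738 in treated cells, and leukocyte markers to 0.518 to 0.862 and 3.29 to 3.66 CPM, and their part was not tested.

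Between the experiments, the repeat's response was smaller in CXCL2 (-3.16 ± 0.77, edgeR adjusted p = 0.017), CXCL3 (-2.52 ± 0.61, 0.018) and CXCL8 (-2.42 ± 0.69, 0.046), beside 1.83% of 36964 genes called lower and 2.59% higher. These calls were fragile. The CXCL8 difference was lost without any of 6 of the 8 libraries and the CXCL2 difference without any of 3. The CXCL3 difference was lost without the first control library, and without that library none of the 6 was called. CXCL1, CXCL5 and CXCL6 gave -1.86 ± 0.73, -0.89 ± 0.44 and 1.29 ± 0.88, none of which passed in the fit reported. With the replicate block (-2.44, edgeR adjusted p = 0.021) or with no filter on low counts (5.4e-07) CXCL1 was called as well, and with no filter so was CXCL6 (0.033). CXCL1 was also called without the second control library of the first experiment or the first treated library of the repeat, and CXCL5 without the latter. For CXCL2 the difference lies in the control levels. It averaged 3.83 CPM with doxorubicin in the first experiment and 4.47 in the repeat, and 0.163 and 1.74 in their controls. CXCL3 averaged 13.9 and 3.91 CPM after the drug, and 0.284 and 0.472 in the controls. CXCL8 averaged 321 and 10.0 CPM after the drug, and 6.88 and 1.17 in the controls. The experiments belong to different sets of libraries, and experiment and set cannot be told apart.

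Radiation of WI-38 at 10 Gy raised all 6 members, beside 8.89% of genes called higher and 6.09% lower. CXCL1 was at 0.619 and 0.585 CPM in the radiation controls and at 67.8 and 106 after 10 Gy (7.17 ± 0.67, edgeR adjusted p = 5.65e-06). CXCL6 was at 0.168 and 0.0215 CPM, the latter 6 counts, and then at 6.44 and 6.48 (6.03 ± 0.74, edgeR adjusted p = 6.8e-05). CXCL8 was at 0.124 and 0.0287 CPM, 43 and 8 counts, and then at 4.51 and 4.60 (5.85 ± 0.76, edgeR adjusted p = 1.1e-04). In irradiated WI-38 the 2 replicates of these last 2 members nearly coincided, while their controls were several-fold apart.

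CXCL3 rose from 8 and 4 counts, 0.0231 and 0.0144 CPM, to 1.48 and 2.42 CPM (6.65 ± 0.67, edgeR adjusted p = 1.0e-05). CXCL5 rose from 0.0809 and 0.0790 CPM to 1.94 and 1.92 (4.59 ± 0.45, edgeR adjusted p = 9.1e-06), and CXCL2 from 0.0318 and 0.162 to 1.97 and 2.97 (4.70 ± 0.68, edgeR adjusted p = 2.7e-04). No member overlapped between the groups, and 56.6% of all genes tested did not. Leaving out any 1 library ended none of these 6 calls. In every member the radiation control averaged below the doxorubicin repeat's control and proliferating WI-38, so the size of the rises depends on it. CXCL8 averaged 0.0765 CPM in the radiation control, against 1.17 and 1.25. CXCL5 averaged 0.0800 against 0.702 and 0.976, and CXCL2 0.0967 against 1.74 and 1.05. In CXCL6 the gap was small (0.0946 against 0.101 and 0.123). Irradiated cells were not tested against these other groups. Mitochondrial genes held 6.31% and 6.99% of counts in the controls and 9.71% and 14% in the irradiated libraries, and fibroblast markers summed to 4921 to 5144 and 6481 to 6683 CPM. Their part was not tested.

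Late passage WI-38 did not share this rise, and 0 of the 6 were called by edgeR, beside 5.80% of genes called higher and 6.82% lower. CXCL1 was at 2.48 and 2.24 CPM in proliferating cells and at 6.14 and 3.22 in late passage (0.98 ± 0.52, edgeR adjusted p = 0.26), and CXCL5 at 0.832 and 1.12 and then at 0.646 and 0.425 (-0.86 ± 0.38, 0.17). CXCL8 was at 1.13 and 1.36 CPM and then at 1.05 and 0.138 (-1.08 ± 0.61, edgeR adjusted p = 0.30), and CXCL2 at 0.845 and 1.26 and then at 0.773 and 0.251 (-1.04 ± 0.58, 0.29). CXCL3 and CXCL6 gave 0.64 ± 0.49 and 0.41 ± 0.73. The groups did not overlap in any of the 6 in these 4 libraries, nor in 57.9% of all genes tested. Fibroblast markers summed to 5381 to 5472 CPM in proliferating and 3382 to 3434 in late passage cells, leukocyte markers to 0.561 to 2.48 and 2.00 to 5.84 CPM, and their part was not tested.

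The count of 0 depended on the fit and on 1 library. Without the first late passage library, CXCL8 (-3.13) and CXCL2 (-2.02) were called lower, and with no filter on low counts 4 members were called, CXCL1 higher and CXCL2, CXCL5 and CXCL8 lower. DESeq2 also called 0 of the 6, and 1 of the 6 (CXCL5) had an unadjusted p below 0.05 in edgeR. The difference between the radiation and late passage responses of WI-38 was itself tested. It takes in the gap between their controls. CXCL5 averaged 0.0800 CPM in the radiation control and 0.976 in proliferating cells, then 1.93 after radiation and 0.536 in late passage. CXCL8 averaged 0.0765 and 1.25 CPM in these controls, then 4.55 and 0.592. In CXCL6 the controls were close (0.0946 and 0.123). All 6 members responded higher to radiation, by 5.45 ± 0.59 (CXCL5, edgeR adjusted p = 5.5e-05) to 6.93 ± 0.96 (CXCL8, 4.8e-04), beside 4.25% of genes called higher and 2.01% lower, and no call was lost when 1 library was left out.

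The fibroblast strains were set against each other in fits of the IMR-90 and second WI-38 sets together. In the difference of the radiation responses, every member was higher in WI-38, by 10.79 ± 0.68 (CXCL5) to 15.43 ± 0.89 (CXCL1) on the log2 scale with edgeR adjusted p of 1.2e-07 or lower, beside 8.84% of 36597 genes called higher and 11.1% lower. The median of all genes in that difference was -0.20. In the late passage difference every member was also higher in WI-38, by 5.12 ± 0.76 (CXCL8, edgeR adjusted p = 1.0e-04) to 9.95 ± 0.82 (CXCL1, 1.1e-07), beside 4.60% called higher and 7.29% lower. The control levels behind these differences were far apart. Proliferating IMR-90 had 81.9 CPM of CXCL1 and 134 of CXCL8, while the WI-38 radiation control had 0.602 and 0.0765 and proliferating WI-38 2.36 and 1.25. Strain, population doubling level of the controls and set of libraries cannot be told apart in these differences.

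**Figure D3:**
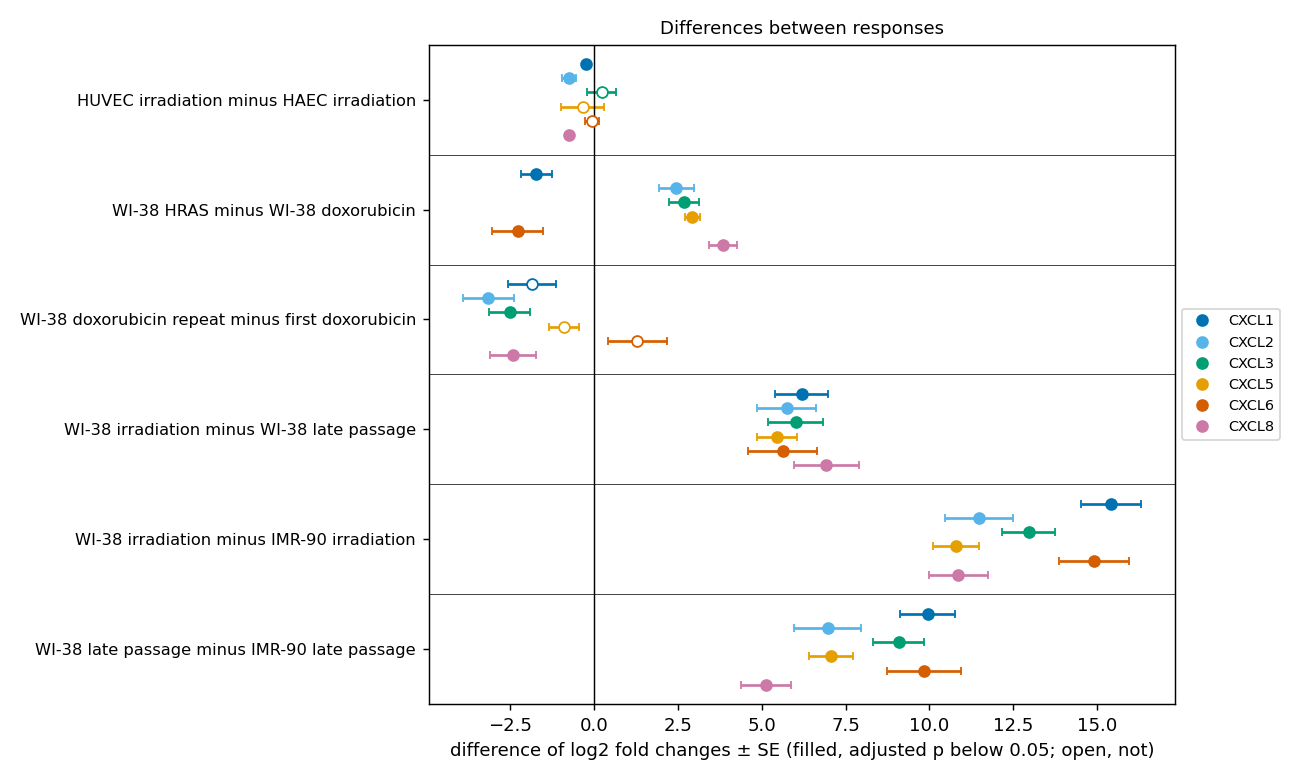
Difference between 2 responses, each taken against its own control, for each chemokine with its standard error. Filled points had an adjusted p below 0.05. Points of the WI-38 radiation response over that of IMR-90 lie beyond 10 on the log2 scale, while those of HUVEC over HAEC lie within 0.8 of 0.

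Per base of exon, the mix of the 6 transcripts differed between the second WI-38 set and the other sets. CXCL8 made up 39.0% to 81.1% of the members' summed RPKM (CPM per kilobase of exon) in the 11 groups of the first 25 libraries, and 2.77% to 14.9% in the 6 groups of the second WI-38 set. There CXCL1 led, with 43.5% to 88.7%. Untreated WI-38 at PDL 25 shows the gap best, with a CXCL8 share of 79.2% in the control of the first doxorubicin experiment and 13.2% in the control of its repeat. No response spans that divide, and what else differs between the sets cannot be told apart from it.

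Within a set the mix also moved with treatment. In HUVEC the CXCL8 share was 61.4% to 63.5% in control and 46.8% to 48.2% in irradiated libraries, and the CXCL1 share 30.7% to 32.7% and 42.3% to 43.8%. In IMR-90 CXCL1 and CXCL8 had 41.9% and 39.0% in proliferating cells, and CXCL8 alone had 80.0% after radiation and 78.8% in late passage. With HRAS, CXCL8 had 81.1% and CXCL5 10.7%, and with doxorubicin CXCL8 had 54.3% and CXCL1 29.2%.

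**Figure D4:**
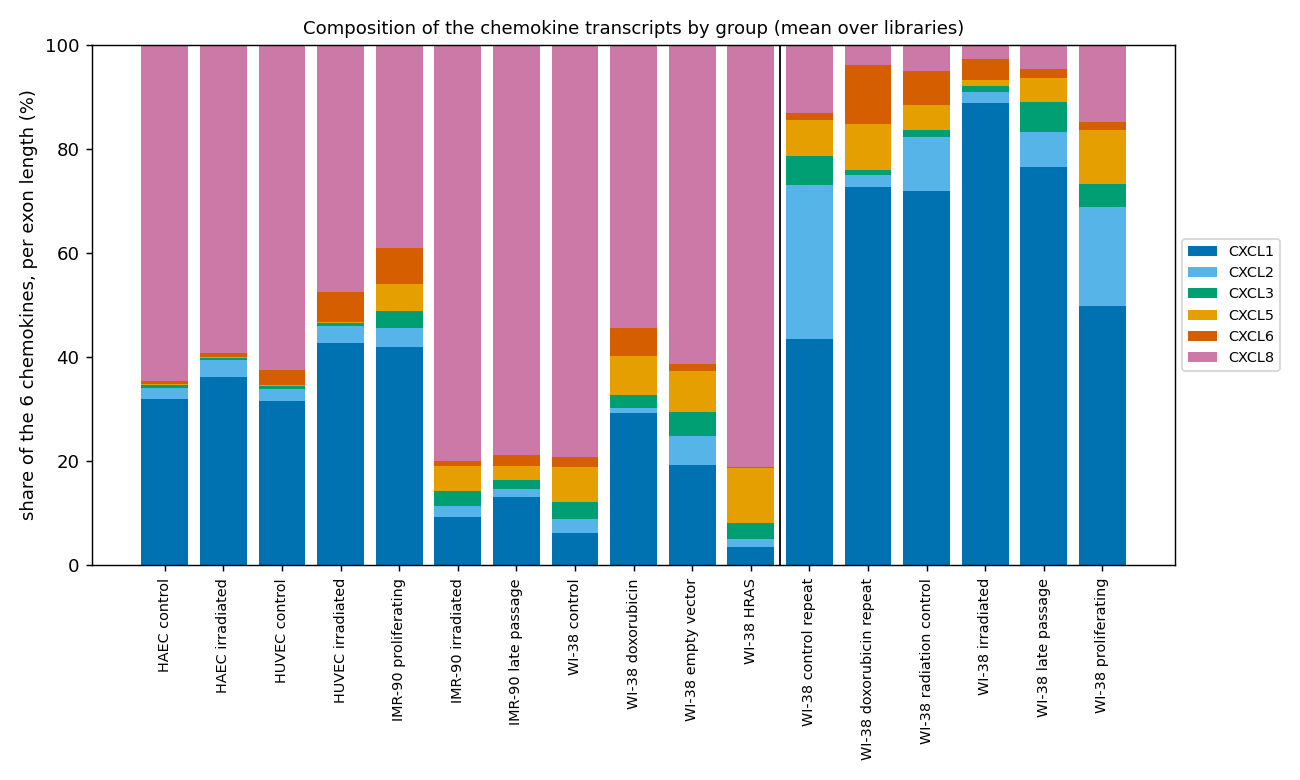
Share of each chemokine in the summed RPKM of the 6, as the mean over the libraries of a group, with a line before the second WI-38 set. CXCL8 fills 39.0% to 81.1% of each bar left of the line and 2.77% to 14.9% right of it.

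The receptors of these ligands were near 0. CXCR1 had at most 24 counts and CXCR2 at most 72 in any library, and in late passage WI-38, where both were tested, CXCR1 gave an edgeR adjusted p of 0.47 and CXCR2 of 0.86. ACKR1, a scavenger on venous endothelium that binds these chemokines without signalling, rose with radiation in both endothelial sets. It went from 0.0464 ± 0.0088 CPM (SD, n = 2) to 0.781 ± 0.104 (n = 3) in HAEC (4.02, edgeR adjusted p = 2.2e-08) and from 0.0681 ± 0.0085 (n = 3) to 0.339 ± 0.092 (n = 3) in HUVEC (2.31, 6.4e-05). It was tested in no comparison of IMR-90 or the first WI-38 set. In the second WI-38 set CXCR1, CXCR2 and ACKR1 were tested in each comparison with a control, and 0 were called. ACKR1 gave -3.82 after radiation of WI-38 (edgeR adjusted p = 0.23). With all 37 libraries in 1 fit it was called lower there (-3.87, edgeR adjusted p = 0.0063).

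Genes of the signalling upstream of the chemokines were followed as a list of 15, interleukin-1, tumour necrosis factor and Toll-like receptors with their adaptors and regulators. In HAEC 10 of 14 tested rose and 3 fell, in HUVEC 5 of 13 rose and 2 fell, after radiation IMR-90 had 3 of 14 higher and 6 lower, and in late passage 5 and 7. With doxorubicin 6 of 13 rose and 2 fell, with HRAS 6 of 13 and 2, in the doxorubicin repeat and in irradiated WI-38 5 of 15 and 0 each, and in late passage WI-38 4 and 1. The list's median log2 fold change lay between -0.39 and 0.74 in these 9 comparisons, against -8.23 to 7.64 for the 6 chemokines and -0.06 to 0.07 for all genes.

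IL1R1, the signalling receptor, was at 253 CPM in proliferating IMR-90 and fell after radiation (-2.67, edgeR adjusted p = 1.9e-12) and in late passage (-3.02). IL1B, a secreted ligand, fell in IMR-90 after radiation (-4.58) and in late passage (-5.46), and rose in the doxorubicin repeat (5.06, edgeR adjusted p = 2.4e-05) and in irradiated WI-38 (3.56, 6.4e-05). It also rose in late passage WI-38 (1.75, edgeR adjusted p = 0.015), where none of the chemokines was called. That call was lost without the second late passage library (0.89) or either proliferating library, and in the fits of the compared groups alone or of all 37 libraries. IL1A, the cell-bound ligand, rose with HRAS from 0.197 to 49.8 CPM in group mean (7.96, edgeR adjusted p = 1.6e-09) and with doxorubicin from 0.188 to 1.21 CPM (2.68, 1.1e-05). IL1B, named here after its values were seen, was at 0.733 ± 0.068 CPM (SD, n = 2) with the empty vector and 539 with HRAS (9.52, edgeR adjusted p = 2.3e-06). In HAEC, where the chemokines rose, IL1B fell (-4.06), a value of -1.49 without a call when the first control was left out.

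NF-kappaB subunits, their kinases and 2 C/EBP factors formed a list of 10, of which IKBKG matched no symbol in the files and 9 were tested. The numbers higher and lower were 4 and 3 in HAEC, 4 and 2 in HUVEC, 2 and 5 in irradiated IMR-90, 2 and 4 in late passage IMR-90, 3 and 0 with doxorubicin and 4 and 1 with HRAS. In the second WI-38 set they were 0 and 0 in the doxorubicin repeat, 2 and 0 after radiation and 0 and 3 in late passage. RELB, a subunit whose gene is itself an NF-kappaB target, rose in HAEC (2.39, edgeR adjusted p = 1.1e-12), in HUVEC (1.02, 1.8e-08) and with HRAS (1.09, 1.6e-04). CEBPB, a factor of inflammatory genes, rose with HRAS (1.81, edgeR adjusted p = 2.1e-06) and after radiation of WI-38 (1.05, 0.0092, lost without the first radiation control), and fell in IMR-90 after radiation (-1.43) and in late passage (-1.59).

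Regulators of NF-kappaB, most of them inhibitors, made a list of 9. In HAEC 6 rose and 1 fell, in HUVEC 3 and 1, with doxorubicin 4 and 0, with HRAS 7 and 1, in the repeat 1 and 1, in irradiated WI-38 3 and 0 and in late passage WI-38 1 and 2, and of 8 tested in IMR-90 4 rose and 3 fell after radiation and 4 rose and 4 fell in late passage. TNFAIP3, the deubiquitinase A20, was at 31.1 CPM in proliferating IMR-90 and fell after radiation (-4.18, edgeR adjusted p = 3.8e-10) and in late passage (-4.08). It rose with doxorubicin (2.10, edgeR adjusted p = 4.8e-07), HRAS (2.84, 2.8e-08), radiation of WI-38 (2.23, 4.2e-05) and radiation of HAEC (1.85, 1.8e-11), and fell in late passage WI-38 (-2.10). NFKBIZ, a nuclear co-activator of secondary NF-kappaB targets, rose with HRAS (2.06, edgeR adjusted p = 9.7e-08), with doxorubicin (1.30, 7.7e-06), in its repeat (1.22, 0.0028) and after radiation of WI-38 (2.23, 6.3e-06). It fell in HAEC (-0.50, edgeR adjusted p = 4.7e-07), where 4 of the chemokines rose. In late passage WI-38 it rose (0.74, edgeR adjusted p = 0.027), a call lost without the first late passage library or either proliferating library.

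Chemokine transcripts carry AU-rich elements and are short-lived, and 7 genes of mRNA decay and stability were listed for that reason. The numbers higher and lower were 1 and 3 in HAEC, HUVEC and doxorubicin, 1 and 5 in both IMR-90 comparisons, 2 and 3 with HRAS, 0 and 0 in the repeat, 2 and 1 in irradiated WI-38 and 1 and 1 in late passage WI-38. ZC3H12A, the RNase Regnase-1, rose with HRAS (1.66, edgeR adjusted p = 1.6e-06), with doxorubicin (1.40, 1.5e-05) and after radiation of WI-38 (1.59, 0.0056, lost without the first radiation control), and fell in IMR-90 after radiation (-1.42) and in late passage (-1.43). HNRNPD, which binds AU-rich elements, fell with doxorubicin (-1.29) and with HRAS (-1.07).

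Neighbours on the same chromosome arm were listed to see how far the pattern reached, and 9 genes that are not chemokines were included. AREG and EREG, are growth factors that bind the EGF receptor. AREG was at 97.9 ± 11.2 CPM (SD, n = 2) in proliferating IMR-90 and fell after radiation (-3.56) and in late passage (-3.41), and it rose with HRAS (5.74, edgeR adjusted p = 1.5e-09), doxorubicin (1.57, 1.6e-05) and radiation of WI-38 (4.26, 4.3e-07). EREG fell in IMR-90 after radiation (-3.16) and in late passage (-3.93), and it rose with HRAS (5.17, edgeR adjusted p = 1.2e-08). Unlike the 6 chemokines, AREG (2.48, edgeR adjusted p = 2.5e-05) and EREG (1.87, 4.9e-04) were called higher in late passage WI-38. In all, 4 of 6 tested neighbours fell and 1 rose in irradiated IMR-90, 5 and 1 in late passage IMR-90, and 6 of 7 rose with HRAS. With doxorubicin 2 of 7 rose, in the repeat 2 of 8, and in irradiated and late passage WI-38 3 of 8 each, and 0 of 3 rose in HAEC, where 2 fell, and in HUVEC, where 0 fell.

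The other CXC genes of the cluster were scarce. PF4V1 was at 2.69 CPM in proliferating IMR-90 (405 and 427 counts) and had 8 to 13 counts after radiation and 2 in each late passage library. PF4 had 37 to 39 counts in proliferating IMR-90 and 0 to 4 after radiation and none in late passage, and PPBP had 39 to 46 counts with HRAS and none with the empty vector. Among the CXC chemokines without the ELR residues, CXCL12, which attracts progenitor cells, fell in IMR-90 after radiation (-3.97) and in late passage (-4.34), with HRAS (-1.32) and in late passage WI-38 (-3.21), and rose in HAEC (1.19, edgeR adjusted p = 8.1e-08). CXCL10, an interferon-induced attractant of T cells, rose with doxorubicin (4.48, edgeR adjusted p = 7.6e-07), in the repeat (4.40, 0.0011), with HRAS (3.44, 5.8e-06) and after radiation of WI-38 (7.03, 1.7e-05), and fell in IMR-90 after radiation (-1.43) and in late passage (-1.52). Of the 8, 3 of 3 tested rose in HAEC, 1 of 3 in HUVEC, 1 of 5 in each IMR-90 comparison with 2 lower, 3 of 5 with doxorubicin, 2 of 5 with HRAS with 1 lower, 2 of 7 in the repeat, 5 of 7 in irradiated WI-38 and 2 of 7 in late passage WI-38 with 1 lower.

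Other secreted factors did not all follow. Of 8 listed, IL1B again among them, 6 rose with doxorubicin, 7 rose and 1 fell with HRAS, 5 rose in the repeat and 5 in irradiated WI-38, and 2 rose and 6 fell in irradiated IMR-90, 2 and 5 in late passage IMR-90, 2 and 2 of 7 in HAEC, 2 and 0 of 7 in HUVEC and 2 and 1 in late passage WI-38. IL6, the most studied cytokine of the programme, rose with doxorubicin (3.24, edgeR adjusted p = 1.2e-08), HRAS (3.77, 3.3e-09) and radiation of WI-38 (3.63, 1.5e-06). Smaller rises were called in HAEC (0.43, edgeR adjusted p = 6.8e-04) and in HUVEC (0.23, 0.032). Both were lost in the fit of all 37 libraries, and that of HUVEC also with the replicate block. CCL2, which attracts monocytes, parted from the ELR chemokines. It rose in late passage WI-38 (2.99, edgeR adjusted p = 5.7e-06), where none of the 6 was called, and it fell with HRAS (-1.69), where all 6 rose.

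Across the 37 libraries, with each gene's log2(CPM + 0.5) centred within its set, the 15 pairs of members had a Pearson r of 0.75 to 0.98, lowest for CXCL2 with CXCL6 and highest for CXCL3 with CXCL8. These libraries share treatments and controls, so the values describe the pattern only. Of 16166 other genes with a symbol and a mean of at least 1 CPM, the 5 most like the mean of the 6 were C11orf96 (0.93), SLC18B1 (0.93), PPIC-AS1 (0.92), NAMPT (0.91) and NAMPTP1 (0.91), the last a pseudogene of NAMPT that can share its reads. The gene most like each member was SLC18B1 for CXCL1 (0.96), TNFAIP3 for CXCL2 (0.93), GABRA2 for CXCL3 (0.94) and CXCL8 (0.92), PTGS2 for CXCL5 (0.91) and VNN3P for CXCL6 (0.94). PTGS2 is the inducible cyclooxygenase of inflammation.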

How the data were processed

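Total RNA depleted of ribosomal RNA was sequenced from 37 libraries in 17 groups. The authors deposited whole-number read counts per Ensembl gene, 1 table per library, made per the submitters' processing notes with bcl2fastq, cutadapt, STAR 2.4 and featureCounts on hg19. No source used here gives the strand setting. Libraries were grouped by their labels, and symbols came from a gene name table. Between 54.4% and 58.9% of nonzero counts were even, a property of the files that was not followed further. Library totals of 102293388 to 370996204 counts make counting error small for all but members with few counts.

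Counts were fitted with edgeR 4.0.16 (R 4.3.3, limma 3.58.1): TMM scaling, filterByExpr and the quasi-likelihood test, 1 fit per set, with Benjamini-Hochberg adjustment over all genes and a threshold of 0.05. The standard error is the log2 fold change divided by the root of F. Differences between responses across sets used a fit of both sets. The script was tested on simulated data. CPM are counts over TMM-scaled library totals within a set. Alternatives were DESeq2 1.42.0, its size factors, no filter, the compared groups alone, all 37 libraries in 1 fit, CXCL1 to CXCL3 summed, a replicate block, other scalings of levels, and each library left out in turn, where a group left with 1 library was assumed to vary like the others of its set. The members and lists were chosen with earlier results of these data known. Besides the members and receptors, the text names of each list up to 2 called genes per direction with the smallest adjusted p in a comparison, and the genes most correlated with the members.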

Additional observations from a re-analysis of the deposited data

Results flagged for a closer look

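The results below are differences between 2 responses that passed the edgeR test of the difference itself. All values are log2 differences, each response being taken against its own control. The response to 4 Gy was lower in HUVEC than in HAEC for CXCL1 (-0.23), CXCL2 (-0.75) and CXCL8 (-0.76). The response to doxorubicin was lower in the repeat than in the first experiment for CXCL2 (-3.16), CXCL3 (-2.52) and CXCL8 (-2.42). For CXCL2 the treated levels of the experiments were close, and the control level was higher in the repeat. The response to 10 Gy was higher in WI-38 than in IMR-90 for CXCL1 (15.43), CXCL2 (11.49), CXCL3 (12.96), CXCL5 (10.79), CXCL6 (14.91) and CXCL8 (10.86). The late passage response was higher in WI-38 than in IMR-90 for CXCL1 (9.95), CXCL2 (6.97), CXCL3 (9.08), CXCL5 (7.06), CXCL6 (9.85) and CXCL8 (5.12). No group held enough libraries for a test of single outlying libraries.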

How the results depend on the processing

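Of 191 alternative counts of members called, 182 stayed within 1.5 times the count reported. With all 37 libraries in 1 fit, 0 members were called in HAEC (4 reported) and 0 in HUVEC (3 reported). All genes called also fell in that fit, from 11118 to 3942 in HAEC and from 10652 to 3269 in HUVEC. With CXCL1 to CXCL3 summed, 5 were called in HUVEC. There the 1 summed row stands for 3 members, so that 3 separate rows were called. With no filter on low counts, 4 were called in late passage WI-38 (0 reported) and 5 in the difference of the doxorubicin experiments (3 reported). Leaving out single libraries gave 0 to 2 in late passage WI-38 and 0 to 4 in the difference of the doxorubicin experiments. Of 1146 alternative log2 fold changes of members, 1085 kept direction and call, 34 lost the call, 26 gained it, and CXCL3 in HAEC turned from -0.11 to 0.63 when CXCL1 to CXCL3 were summed. EREG in HAEC turned from -1.69 to 0.0607 without the first control library and was -2.40 without the second. Apart from the construction of the summed row, the cause was not tested. Scaled to protein-coding counts in place of all counts, 36 of the 102 group levels of members stayed within 1.5 times, all in the second WI-38 set, and CXCL6 was highest with the first doxorubicin treatment; TMM over all 37 libraries left all 102 within 1.5 times. The count of all genes called moved most in the second WI-38 set, in the doxorubicin repeat from 1831 to 3135 with no filter, 3609 with DESeq2, 6464 with all libraries and 612 to 2498 with single libraries left out. With the replicate block, the count of members called was 2 instead of 3 in the difference of HUVEC and HAEC (CXCL1 lost) and 4 instead of 3 in that of the doxorubicin experiments (CXCL1 gained), and the same in the other comparisons (4 in HAEC, 3 in HUVEC, 6 in each IMR-90 comparison, with doxorubicin, with HRAS and in irradiated WI-38, 5 in the repeat, 0 in late passage WI-38). Deviations from group means of libraries with the same number correlated by -0.06 to 0.12 across genes. These values cannot settle whether such libraries were paired. Depth limits CXCL2, CXCL3 and CXCL6 in irradiated and late passage IMR-90, at 26 counts or fewer. It also limits CXCL5 (22 and 4 counts) and CXCL1 (32 and 19 counts) in late passage IMR-90.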
